A study of Mus musculus with 28 samples.

Results

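Epididymal white fat was compared with subcutaneous white fat in control mice only, using 6 of the 28 RNA-seq libraries of a study of Fgf13 (fibroblast growth factor 13) in adipose tissue. The 3 epididymal libraries, called ieWAT, and the 3 subcutaneous libraries, called isWAT, are the controls of an inducible adipose Fgf13 knockout. High fat feeding for 20 weeks had made the mice obese, and the genotype of all 6 controls is given as WT. Genes were included when their Ensembl identifier was listed in both depot tables and reached at least 1 CPM (reads per 1000000 reads of the library) in 3 or more of the 6 libraries, which kept 14464 of the 29330 shared identifiers. A further 3 subcutaneous control libraries, called sWAT, belong to a constitutive adipose Fgf13 knockout line on the same diet and were used as another subcutaneous set. The 3 ieWAT and 2 isWAT libraries of the inducible knockout gave the same depot contrast in knockout mice. A further epididymal control set, called eWAT, is in FPKM (reads scaled by gene length and library size), with no diet or knockout type stated. The labels give neither the Cre driver, the inducing agent, the age and the sex of the mice, nor say that each library came from its own animal or whether the same mice gave both depots. Every p-value therefore measures the spread between these samples, which may be technical.

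Epididymal fat lies in the abdominal cavity beside the testis and is covered by mesothelium, the thin cell layer that lines body cavities, whereas subcutaneous fat lies under the skin and has no such layer. Fat cells and their precursors keep a record of body position in transcription factors of the Hox, T-box and homeobox families, which are set in the embryo and stay on in the adult depot. In obesity the epididymal depot of male mice is known for the accumulation of macrophages, including lipid-laden cells that surround dying fat cells.

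The depots were deposited as separate tables, so depot and table cannot be told apart in any difference between ieWAT and isWAT. The isWAT and sWAT controls come from the same depot in 2 tables and 2 mouse lines, and their difference gives a scale for effects other than depot. Read totals were 33120511 to 39201071 in the ieWAT controls and 38385989 to 48812592 in the isWAT controls, against 13490948 to 21241811 in the sWAT controls. One read was worth 0.0205 to 0.0302 CPM in the 6 libraries compared. Library pairs correlated at 0.954 to 0.978 within the ieWAT controls and at 0.988 to 0.994 within the isWAT controls (Pearson's r across tested genes, which are not independent replicates). The first principal component held 64.2% of the variance and separated the depots. The second principal component held 21.7%, and ieWAT control 1 lay apart from the other libraries on it.

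Several libraries held transcripts of neighbouring or other tissues. Summed levels of 10 secreted liver proteins were 24.2, 2040 and 1810 CPM in the ieWAT controls, 60.7, 674 and 107 CPM in the isWAT controls and 226, 32.4 and 46.9 CPM in the sWAT controls. Summed levels of 12 testis and sperm genes were 78.8, 38.4 and 1430 CPM in the ieWAT controls, 47.8, 47.8 and 57.2 CPM in the isWAT controls and 32.3, 28.5 and 34.9 CPM in the sWAT controls. Prm2, a protamine that packs sperm DNA, was at 9.82, 0 and 353 CPM in the ieWAT controls and at 1.16, 0 and 3.63 CPM in the isWAT controls. None of the 10 tested genes of either list passed limma's test between depots, and none had an unadjusted p under 0.05. edgeR called 0 in both lists, and DESeq2 called 0 of the liver list and 1 of the testis list. Both lists were picked with their values in view, and their part in the results below was not tested. None of 21 genes of epididymal and male tract epithelium was tested, and their sum was at most 8.82 CPM in the ieWAT controls and at most 2.88 CPM in the isWAT controls. Mammary and skin epithelium had 2 of 21 genes tested, neither of which passed limma's, edgeR's or DESeq2's test or had an unadjusted p under 0.05, and the 21 summed to 3.63 to 4.98 CPM in the ieWAT controls and 4.41 to 10.2 CPM in the isWAT controls. Skeletal muscle genes summed to 84.9 to 104 CPM in the ieWAT controls and 131 to 144.5 CPM in the isWAT controls, with 2 of 10 tested genes higher, 4 lower and a median log2 difference of -0.30 (0.32 against sWAT). Of these muscle calls, 1 higher and 1 lower gene were under 1 CPM throughout the other depot and had to differ. In the heart, liver and pancreas list 1 of 6 tested genes, Cela1, was lower in ieWAT (log2 -0.43), a call absent without isWAT control 1 or without isWAT control 3. In the erythroid and platelet list 1 of 7 tested genes, the platelet chemokine Pf4, was higher (log2 1.25). Of 4 tested sex chromosome genes, none was called by limma, edgeR or DESeq2, and none had an unadjusted p under 0.05. Xist, which is expressed from the inactive X chromosome, was at most 0.0604 CPM in the ieWAT controls and 0.0205 CPM in the isWAT controls. Ddx3y, a Y-linked RNA helicase gene, was at 51.6, 33.3 and 29.5 CPM in the ieWAT controls and at 47.7, 46.8 and 52.7 CPM in the isWAT controls.

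**Figure D1:**
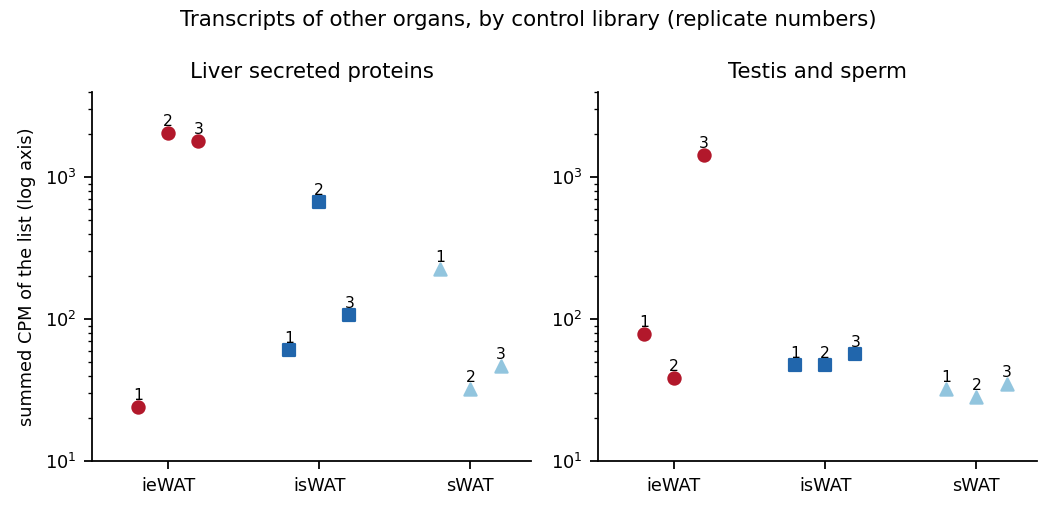
Summed CPM of 10 secreted liver proteins (left) and of 12 testis and sperm genes (right) in each control library, on a log axis, with points numbered by replicate. The highest sums were 2040 CPM for the liver list in ieWAT control 2 and 1430 CPM for the testis list in ieWAT control 3, while ieWAT control 1 held 24.2 CPM of the liver list.

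Many genes differed between ieWAT and isWAT controls, though more differed between the isWAT and sWAT controls of 1 depot (26.0% higher, 19.3% lower). Of the 14464 genes, 2666 (18.4%) were higher and 1972 (13.6%) lower in ieWAT than in isWAT controls (limma on log2(CPM + 1), Benjamini-Hochberg adjusted p under 0.05). Leaving out isWAT control 1 reduced the lower genes to 1250 and the higher ones to 1976. At a change of at least 2-fold on that scale, which understates the change of low genes, the called genes were mostly higher, with 1054 (7.29%) higher and 205 (1.42%) lower. At 4-fold or more there were 265 higher and 12 lower genes. The median log2 difference of all tested genes was 0.023, and the median absolute difference was 0.26. The ieWAT and isWAT controls did not overlap for 47.0% of tested genes. A lack of overlap given for single genes below is therefore a description only. Of all genes tested, 277 were under 1 CPM in every isWAT control and 87 were under 1 CPM in every ieWAT control. These passed the expression filter only through the depot in which they were high, so they had to differ, and no adjusted p is given for those named below. They made up 144 of the 1054 higher and 29 of the 205 lower genes. Such genes also gave 1 higher call each in the collagen, other matrix, endothelial, insulin, mast cell and neutrophil, and MHC class II lists below.

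Against the sWAT controls, which share the ieWAT libraries with the contrast above, 3981 genes (27.5%) were higher and 2318 (16.0%) lower in ieWAT. Between isWAT and sWAT controls, the same depot in different tables and lines, 3763 genes (26.0%) were higher and 2792 (19.3%) lower in isWAT, which is 57.4% of calls higher. With TMM scaling that split turned to 3027 higher and 3358 lower, or 47.4% higher. These calls within a depot were mostly small. Only 285 (1.97%) were at least 2-fold higher and 260 (1.8%) at least 2-fold lower, against 1054 and 205 between ieWAT and isWAT. At 4-fold or more the counts within the depot were 43 and 17. The sWAT values are therefore given beside most gene groups below. A bulk library cannot tell a lower number of cells of a type from less RNA per cell.

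Several transcription factors that pattern the mesoderm were nearly absent from 1 of the depots. Of 65 listed factors other than Hox genes, 28 were tested, of which 10 were higher and 11 lower in ieWAT, with a median log2 difference of -0.17. 5 of the higher and 5 of the lower genes were under 1 CPM throughout the other depot. Against sWAT, 9 were higher and 9 lower (median -0.03). Tcf21, a basic helix-loop-helix factor of visceral mesoderm (chr10:22817281-22820174, GRCm38), was at 4.57, 5.04 and 5.65 CPM in the ieWAT controls and at 0 in all 3 isWAT controls. The ieWAT libraries held 552 reads of it in all, which is at least 214-fold higher than the 3 reads over the isWAT group that a count of 0 allows (log2 2.60 ± 0.14 SE). In the sWAT controls it was at 0.0941, 0 and 0 CPM. Wt1, the Wilms tumour zinc finger factor of visceral mesoderm and mesothelium (chr2:105126529-105173616), was at 8.09, 5.69 and 7.37 CPM in the ieWAT controls and at 0.0257, 0.13 and 0.0205 CPM in the isWAT controls. The isWAT values rest on 7 reads in all against 771 in ieWAT, and the means differed 120-fold (log2 2.92 ± 0.16 SE). Wt1 was at 0 in all 3 sWAT controls. Osr1, a zinc finger factor of intermediate mesoderm, was at 26.9, 24.9 and 20.1 CPM in the ieWAT controls against 9.74, 9.3 and 8.95 CPM in the isWAT controls (log2 1.26), with no overlap.

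The opposite pattern was led by Tbx15, a T-box factor of limb, trunk and adipose mesoderm (chr3:99240381-99354259). It was at 0, 0.108 and 0.121 CPM in the ieWAT controls, 13.5, 13.7 and 13.8 CPM in the isWAT controls and 14.1, 16.6 and 14.4 CPM in the sWAT controls. The isWAT mean was 179-fold above the ieWAT mean, which rests on 8 reads (log2 -3.77 ± 0.13 SE). Shox2, a homeobox factor of the proximal limb, was at 0.663, 0.244 and 0.664 CPM in the ieWAT controls, 11.5, 10.9 and 14.3 CPM in the isWAT controls and 20.1, 20.5 and 20.1 CPM in the sWAT controls (log2 -3.12 against isWAT and -3.81 against sWAT). Lhx8, a LIM homeobox factor, varied more among the isWAT controls, at 11, 3.05 and 6.04 CPM, against 0.102, 0.108 and 0.241 CPM in the ieWAT controls (log2 -2.61). Meox2, a mesenchyme homeobox factor, was lower in ieWAT without being absent, at 25.2, 20.0 and 19.4 CPM against 43.9, 47.4 and 45.5 CPM in isWAT (log2 -1.06). En1, a homeobox factor of trunk dermomyotome, was low in both depots, at 0.383, 0.623 and 0.332 CPM in ieWAT and 1.03, 2.08 and 1.33 CPM in isWAT (log2 -0.76), and its call was lost in 1 of the 6 fits that left out a library.

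The promoters of 2 genes that were nearly absent from isWAT and of 2 that were nearly absent from ieWAT are printed to set opposite depot patterns side by side (RefSeq, GRCm38.p6, 5′ to 3′ on the minus strand, 250 bases before to 50 bases after the annotated start). Capitals mark the GC box (GGGCGG or its reverse complement CCGCCC) and the TATA box (TATAAA or TTTATA).
Col6a5, high in ieWAT, chr9:105960594-105960893: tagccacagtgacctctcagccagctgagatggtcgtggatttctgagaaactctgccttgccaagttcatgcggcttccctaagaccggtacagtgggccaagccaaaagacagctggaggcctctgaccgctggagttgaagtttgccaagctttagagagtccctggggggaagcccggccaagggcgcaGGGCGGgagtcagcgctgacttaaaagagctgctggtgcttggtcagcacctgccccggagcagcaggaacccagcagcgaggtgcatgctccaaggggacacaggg
Tcf21, high in ieWAT, chr10:22820094-22820393: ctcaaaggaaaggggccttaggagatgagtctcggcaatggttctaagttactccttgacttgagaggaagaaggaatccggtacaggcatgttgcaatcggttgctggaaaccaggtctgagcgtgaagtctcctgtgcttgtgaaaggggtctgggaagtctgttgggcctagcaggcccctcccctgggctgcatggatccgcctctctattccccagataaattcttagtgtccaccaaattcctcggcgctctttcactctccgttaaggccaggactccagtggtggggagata
Hoxa10, high in isWAT, chr6:52240805-52241104: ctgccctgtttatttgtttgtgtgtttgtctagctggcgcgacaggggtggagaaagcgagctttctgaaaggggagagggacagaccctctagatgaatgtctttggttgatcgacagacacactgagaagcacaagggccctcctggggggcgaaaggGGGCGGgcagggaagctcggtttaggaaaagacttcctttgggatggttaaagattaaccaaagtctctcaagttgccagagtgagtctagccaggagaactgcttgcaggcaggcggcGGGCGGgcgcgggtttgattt
Shox2, high in isWAT, chr3:66981722-66982021: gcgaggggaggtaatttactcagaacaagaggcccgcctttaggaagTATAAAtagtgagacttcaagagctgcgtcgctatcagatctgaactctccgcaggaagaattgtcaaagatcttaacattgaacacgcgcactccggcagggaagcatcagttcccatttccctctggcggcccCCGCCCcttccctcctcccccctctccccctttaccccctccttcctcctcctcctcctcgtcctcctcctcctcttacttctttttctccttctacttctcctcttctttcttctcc

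The Col6a5 window held 1 GC box and the Tcf21 window held neither motif. The Hoxa10 window, the first of 2 promoters listed for that gene, held 2 GC boxes. The Shox2 window held 1 GC box and 1 match to the TATA box letters, the latter near its upstream end and far from the annotated start. Among all 32851 RefSeq promoter windows of that length, 35.7% held a GC box and 13.6% a TATA box. A CCAAT box (CCAAT or ATTGG), which 37.4% of all windows held, was in none of the 4. The windows held 10, 8, 12 and 11 CpG dinucleotides in the order printed, against a median of 7 over all windows. With 4 windows, no comparison between the pairs was made. No binding or methylation was measured here.

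The largest Hox differences were at posterior members of the Hoxa and Hoxc clusters. Of 39 Hox genes, 24 were tested, of which 11 were lower and 1 higher in ieWAT, with a median log2 difference of -0.42. Hoxa10, Hoxa9 and Hoxc10, which are 3 of the 11, were under 1 CPM in every ieWAT control. Hoxc10, a posterior patterning factor (chr15:102966796-102971893), was at 0.255, 0.217 and 0.966 CPM in the ieWAT controls, 28.3, 24.2 and 26.8 CPM in the isWAT controls and 25.6, 25.1 and 24.9 CPM in the sWAT controls. Its isWAT mean was 55.2-fold above the ieWAT mean (log2 -4.25 ± 0.20 SE). Hoxa10 was at 0.0765, 0 and 0.272 CPM in the ieWAT controls and at 11.6, 8.49 and 13.1 CPM in the isWAT controls (log2 -3.42), and Hoxa9 followed at log2 -3.07. Hoxc9 was at 1.25, 1.17 and 2.72 CPM in the ieWAT controls and 7.79, 7.95 and 6.39 CPM in the isWAT controls (log2 -1.67, adjusted p = 0.000847). The ieWAT and isWAT controls did not overlap for Hoxc9. For Hoxa10, Hoxa9 and Hoxc10 the expression filter fixed this in advance. In all 4 genes ieWAT control 3, the library with the most testis transcript, had the highest level of the ieWAT group. The part of testis transcripts in those levels was not tested.

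The remaining calls in the Hox clusters were smaller, from -0.54 (Hoxc6 and Hoxb9) to -1.03 (Hoxc5). Hoxc8 was at 37.8, 33.7 and 43.4 CPM in the ieWAT controls against 69.9, 70.5 and 64.3 CPM in the isWAT controls (log2 -0.82), and its difference from sWAT was -0.84. Hoxb9 was at -0.54 against isWAT but -0.03 against sWAT (adjusted p = 0.897). Hoxc4 was the gene that was higher in ieWAT, at 6.10, 5.55 and 5.59 CPM against 4.34, 3.73 and 4.00 CPM (log2 0.43, adjusted p = 0.0343), and its call was lost in 5 of the 6 fits that left out a library. In the Hoxd cluster none of the 3 tested genes passed against isWAT, with log2 differences from -0.39 (Hoxd9) to 0.05 (Hoxd8). Against sWAT, 9 Hox genes were lower and 3 higher in ieWAT, with a median of -0.11. Hox genes overlap one another: the Hoxc5 gene model (chr15:102967443-103017429, GRCm38) spans Hoxc9, Hoxc8 and Hoxc6 and overlaps Hoxc10, so reads of these neighbours may have been split between them.

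**Figure D2:**
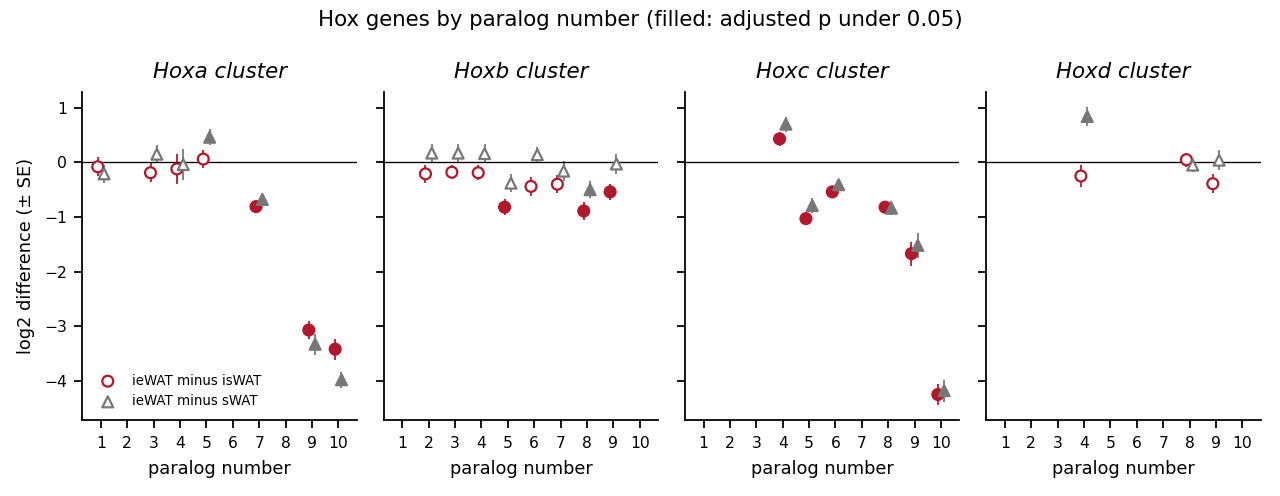
Log2 difference (± SE) of each tested Hox gene against its paralog number within the 4 clusters, for ieWAT minus isWAT controls (circles) and ieWAT minus sWAT controls (triangles). Both contrasts share the ieWAT libraries, and filled symbols passed an adjusted p under 0.05. The largest differences were at Hoxc10 (-4.25 against isWAT), Hoxa10 (-3.42) and Hoxa9 (-3.07), and none of the 3 tested Hoxd genes passed the test against isWAT.

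Several mesothelial genes were high in ieWAT and near 0 in isWAT. Of 23 listed genes, 17 were tested, of which 11 were higher and 1 lower in ieWAT, with a median log2 difference of 1.54. Of the 11 higher genes, 8 were under 1 CPM in every isWAT control and had to differ, so the count and the median are a description only. Upk3b, a uroplakin of the mesothelial surface, was at 19.2, 9.97 and 11 CPM in the ieWAT controls and at 0.129, 0 and 0.225 CPM in the isWAT controls, a 113-fold difference of means (log2 3.64 ± 0.24 SE). Msln, the surface protein mesothelin, was at 4.00, 2.90 and 3.02 CPM in the ieWAT controls and at 0.0771, 0.261 and 0.369 CPM in the isWAT controls (log2 1.80). Rspo1, a secreted enhancer of Wnt signalling, was at 11.9, 9.02 and 9.09 CPM in the ieWAT controls against 0.643, 0.781 and 1.11 CPM in the isWAT controls (log2 2.57). Slpi, a secreted protease inhibitor, was at 32.9, 16.3 and 13 CPM against 0.72, 0.313 and 0.471 CPM (log2 3.76). Aldh1a2, which makes retinoic acid and marks mesothelium, was at 20.5, 14.7 and 21.3 CPM against 2.37, 1.43 and 2.01 CPM (log2 2.75). For Rspo1 and Aldh1a2 the lowest ieWAT value lay above the highest isWAT value. Upk3b, Msln and Slpi were under 1 CPM in every isWAT control, so the filter fixed this in advance. Cldn15, a tight junction protein, was the member that was lower in ieWAT, at 45.9, 49.9 and 54.2 CPM against 130.5, 165 and 127.5 CPM (log2 -1.47). Against sWAT, 14 mesothelial genes were higher and 1 lower, with a median of 1.75, and the median between isWAT and sWAT was -0.03.

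The tested gene with the largest difference on the log2(CPM + 1) scale was Col6a5, a chain of the beaded collagen VI (chr9:105856078-105960643). It was at 362, 257 and 294 CPM in the ieWAT controls, 0.951, 2.16 and 0.471 CPM in the isWAT controls and 1.41, 0.445 and 0.0612 CPM in the sWAT controls. Its ieWAT mean was 255-fold above the isWAT mean (log2 7.18 ± 0.28 SE, adjusted p = 3.86e-05). Col6a6, the neighbouring collagen VI chain, was at 70.2, 52.8 and 63.0 CPM in the ieWAT controls against 7.61, 4.48 and 5.41 CPM in the isWAT controls (log2 3.22). The basement membrane chains Col4a6 (log2 2.47) and Col4a5 (log2 1.64) were also higher in ieWAT. Of 28 collagens, 26 were tested, with 9 higher and 7 lower and a median of 0.18, so the collagens did not move together. The lower ones included the main basement membrane chains Col4a1 (-0.53) and Col4a2 (-0.62), which were at 0.00 and -0.01 against sWAT. Without isWAT control 1 the lower collagens numbered 4, and against sWAT 11 collagens were higher and 0 lower.

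Among 48 other matrix genes, 21 were higher and 9 lower in ieWAT, with a median of 0.40, and 26 were higher and 6 lower against sWAT (median 0.45). Mgp, a matrix inhibitor of calcification, was at 223, 227 and 216 CPM in the ieWAT controls and at 42.8, 41.9 and 44.6 CPM in the isWAT controls (log2 2.34 ± 0.08 SE, adjusted p = 1.17e-05). Fbln1, an elastic fibre and basement membrane protein, was at 86.4, 89.4 and 72.5 CPM in the ieWAT controls against 10.3, 12.3 and 8.71 CPM in the isWAT controls (log2 2.88). The metalloproteinase inhibitors Timp1 (log2 2.44) and Timp2 (log2 1.72) were higher too. All 4 genes were higher against sWAT as well, by 1.58 (Timp2) to 2.93 (Mgp).

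**Figure D3:**
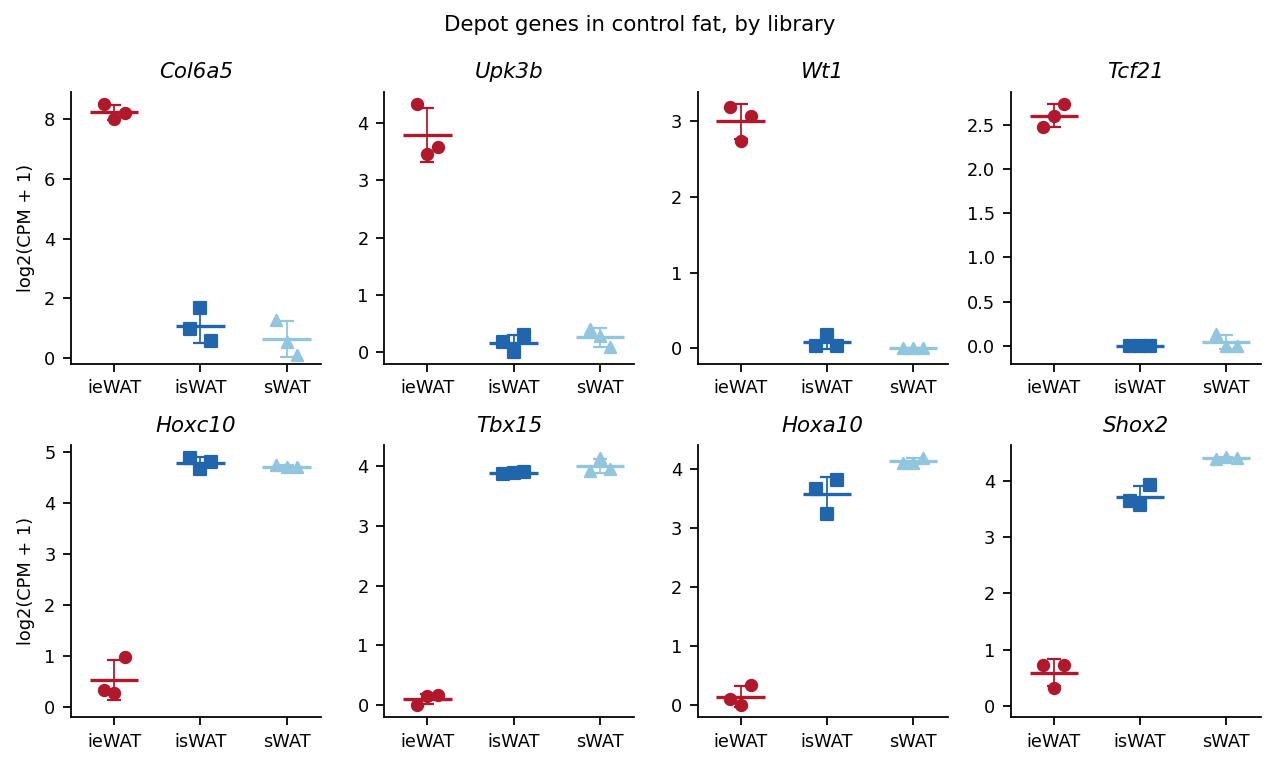
Level on the log2(CPM + 1) scale of 8 depot genes in the control libraries, with a point for each library, the mean as a line and the SD as error bars (n = 3 each). Col6a5, Upk3b, Wt1 and Tcf21 (upper row) were high in ieWAT and near 0 in the isWAT and sWAT controls, and Hoxc10, Tbx15, Hoxa10 and Shox2 (lower row) showed the opposite.

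Secreted signals and hormones were split between the depots. Of 32 tested Wnt, BMP and TGF beta genes, 11 were higher and 8 lower in ieWAT, with a median of 0.14, and 11 were higher and 9 lower against sWAT (median 0.30). Sfrp1, a secreted Wnt inhibitor, was at 128, 81.3 and 65.8 CPM in the ieWAT controls, 3.24, 4.30 and 2.97 CPM in the isWAT controls and 4.71, 4.08 and 3.24 CPM in the sWAT controls (log2 4.32 against isWAT). Bmp3, a bone morphogenetic protein, was lower in every ieWAT control, at 49.5, 47.3 and 48.5 CPM against 107, 118 and 118 CPM in isWAT (log2 -1.22). Gdf15, a stress hormone of the TGF beta family, was at 6.63, 6.69 and 6.64 CPM in the ieWAT controls against 1.00, 1.35 and 1.72 CPM in the isWAT controls (log2 1.71). Other secreted proteins were among the largest differences. Penk, the enkephalin precursor, was at 56.8, 77.0 and 76.8 CPM in the ieWAT controls against 2.80, 4.64 and 2.17 CPM in the isWAT controls (log2 4.11). The complement component C7 was at 178, 125 and 180 CPM against 10.5, 10.3 and 8.09 CPM (log2 3.92). Agt, the angiotensin precursor, was at 69.7, 83.6 and 100 CPM against 2.60, 8.80 and 3.44 CPM (log2 3.97, adjusted p = 0.000767). Liver also makes Agt. The ieWAT control at 69.7 CPM of Agt held 24.2 CPM of the liver list, and the part of liver transcripts in this difference was not tested.

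Of 37 tested adipokine and hormone genes, 9 were higher and 15 lower in ieWAT, with a median of -0.23, and 7 were higher and 14 lower against sWAT (median -0.21). Retn, the adipokine resistin, was at 139, 151 and 200 CPM in the ieWAT controls, 549, 701 and 513 CPM in the isWAT controls and 667, 586 and 507 CPM in the sWAT controls (log2 -1.84 against isWAT). Lep, the satiety hormone leptin, was at 2893, 2377 and 2373 CPM in the ieWAT controls against 4842, 3952 and 4391 CPM in the isWAT controls (log2 -0.79 ± 0.12 SE, adjusted p = 0.00174). The peptide hormone Apln was lower as well (log2 -1.75). Higher members included the lipocalin Lcn2 (log2 2.19) and Metrnl, a secreted meteorin-like protein (log2 1.62).

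Macrophage genes were higher in ieWAT as a group. Of 19 tested genes, 15 were higher and 0 lower, with a median of 1.84. The summed list was 5041, 6458 and 4131 CPM in the ieWAT controls, 1141, 1178 and 1176 CPM in the isWAT controls and 2113, 1752 and 1544 CPM in the sWAT controls. Cd68, a lysosomal macrophage protein, was at 623, 804 and 578 CPM in the ieWAT controls against 80.4, 89.0 and 118 CPM in the isWAT controls, a 6.99-fold difference of means (log2 2.80 ± 0.17 SE, adjusted p = 4.54e-05). Adgre1, the F4/80 antigen, was higher by 2.91 and Csf1r, the receptor for the macrophage growth factor, by 1.98. The uncalled members included Cd163, a scavenger receptor of resident macrophages (log2 -0.77), and Lyve1. Between isWAT and sWAT the list ran the other way, with 1 higher and 15 lower genes and a median of -0.63, so the isWAT controls held the lowest macrophage levels. Against sWAT, 13 genes were higher and 0 lower in ieWAT (median 1.48).

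Markers of lipid-associated macrophages, the cells that take up lipid in obese fat, gave 14 higher and 2 lower of 18 tested genes, with a median of 2.10, and 14 higher and 3 lower against sWAT (median 1.49). Trem2, the lipid-sensing receptor that marks these cells, was at 310.5, 482 and 349 CPM in the ieWAT controls, 23.8, 40.1 and 52.4 CPM in the isWAT controls and 68.5, 62.4 and 42.4 CPM in the sWAT controls (log2 3.31 against isWAT). Itgax, the integrin CD11c, was at 318, 427 and 327 CPM against 33.1, 40.9 and 58.6 CPM in isWAT (log2 3.01). Gpnmb, a glycoprotein of lysosome-rich macrophages, was at 2056, 1964 and 1825 CPM against 127, 181 and 289 CPM in isWAT (log2 3.37). The lysosomal enzymes Ctsk (2.05) and Lipa (2.19) were higher as well. The lower members were Acp5 (-0.60) and Lpl (-0.41). Lpl, lipoprotein lipase, is also a main product of fat cells. No ieWAT control overlapped an isWAT control for Trem2, Itgax or Gpnmb, which was also so for 47.0% of all tested genes.

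Mast cell and neutrophil genes gave 7 higher and 2 lower of 10 tested, with a median of 1.49, and 7 higher and 0 lower against sWAT (median 1.34). Mcpt4, a mast cell protease, was at 50.8, 51.2 and 51.5 CPM in the ieWAT controls, 7.82, 7.11 and 5.49 CPM in the isWAT controls and 12.9, 17.9 and 4.22 CPM in the sWAT controls (log2 2.75 against isWAT). Cpa3 (3.04), Cma1 (2.96) and Tpsb2 (2.97), also mast cell granule enzymes, were higher, although reads of related proteases may have been shared between them. The lower members were the stem cell factor receptor Kit (-0.87) and the transcription factor Gata2 (-0.41), which were at 0.16 and 0.33 against sWAT. Genes of MHC class II and dendritic cells gave 10 higher and 2 lower of 14, with a median of 1.04, and 10 higher and 0 lower against sWAT (median 0.73). Ciita, the activator of class II genes, was at 51.5, 56.3 and 38.2 CPM in the ieWAT controls against 11.5, 12.2 and 13.3 CPM in the isWAT controls (log2 1.88).

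Lymphocyte genes gave few calls in the controls. In the T and NK cell list 2 of 17 tested genes were higher and 1 lower, with a median of 0.24, and 4 were higher without ieWAT control 3. Against sWAT that median was below 0, at -0.55, with 2 higher and 2 lower genes, and in the knockout libraries it was 1.39, with 12 higher and 0 lower. Gzma, the lower gene between ieWAT and isWAT controls, was under 1 CPM in every ieWAT control and had to differ. Il7r, the interleukin 7 receptor, was at 52.0, 52.0 and 36.4 CPM in the ieWAT controls against 4.42, 5.97 and 9.08 CPM in the isWAT controls (log2 2.70), and Il1rl1, the interleukin 33 receptor, differed by 1.44. In the B cell and lymph node list 2 of 13 were higher and 0 lower, with a median of 0.35 and sums of 2479, 1987 and 1244 CPM in the ieWAT controls and 1428, 1084 and 1164 CPM in the isWAT controls. Jchain, the joining chain of secreted antibodies, spread over 180, 85.7 and 17.6 CPM in the ieWAT controls against 7.87, 2.73 and 1.82 CPM in the isWAT controls. Against sWAT the list had 2 higher and 0 lower genes but a median below 0, at -0.18. Between ieWAT and isWAT, DESeq2 and the replicate block each called 4 higher, TMM scaling and median-ratio factors each called 1, and 1 was called without ieWAT control 1, ieWAT control 2, isWAT control 1 or isWAT control 2. The difference of Jchain (log2 3.87 ± 1.02 SE, adjusted p = 0.0474) was called in 1 of the 6 fits that left out a library. The highest value was in ieWAT control 1.

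Cell cycle genes were higher in ieWAT almost throughout. Of 21 tested, 20 were higher and 0 lower, with log2 differences from 0.31 to 1.17 and a median of 0.91. Pcna, the DNA polymerase clamp, was at 110, 105 and 83.1 CPM in the ieWAT controls, 43.2, 43.7 and 50.6 CPM in the isWAT controls and 67.2, 67.1 and 66.5 CPM in the sWAT controls (log2 1.09 against isWAT and 0.55 against sWAT). Birc5 (1.17), Ccnb2 (1.16) and Cenpa (1.06), which act in mitosis, did the same. Against sWAT, 17 were higher and 0 lower. Leaving out any of the 6 libraries gave 18 to 21 higher genes.

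**Figure D4:**
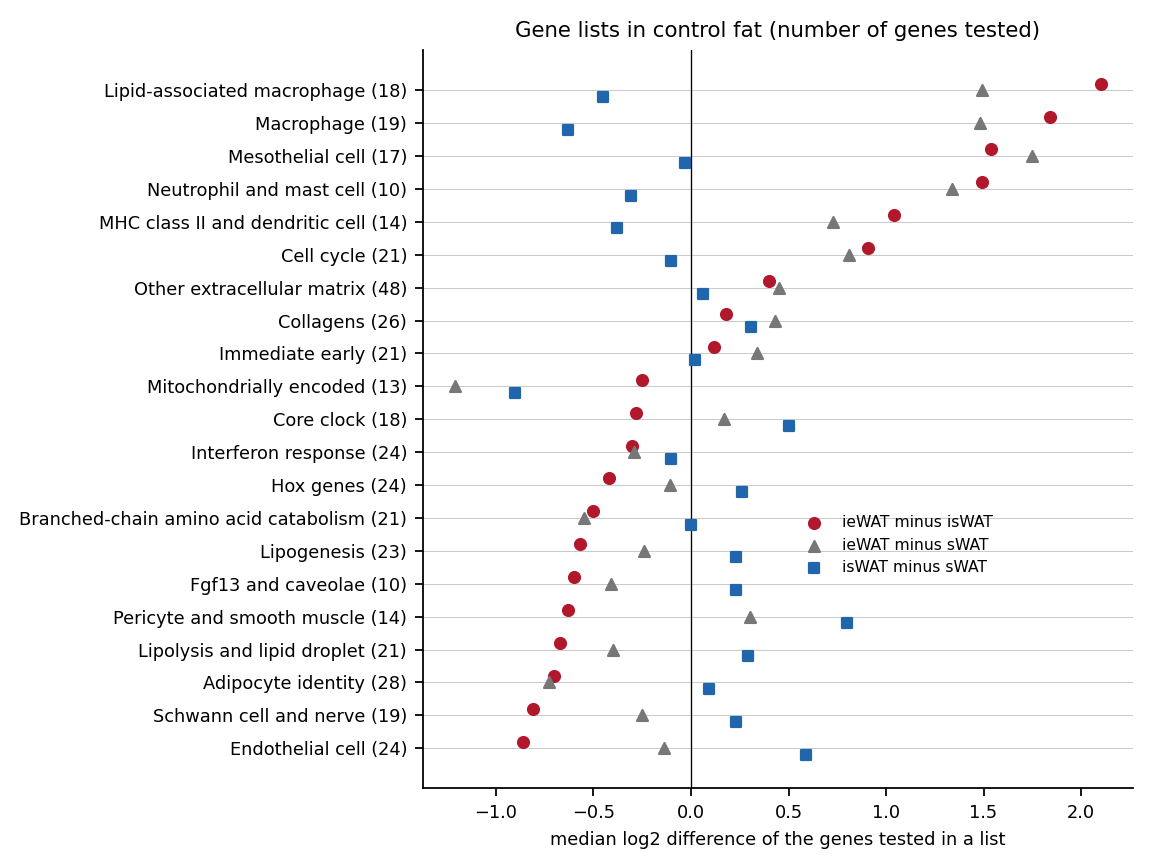
Median log2 difference of the tested genes of 21 lists, with the number of genes in brackets, for ieWAT minus isWAT, ieWAT minus sWAT and isWAT minus sWAT controls, which share libraries pairwise. Macrophage (1.84 and 1.48), mesothelial (1.54 and 1.75) and cell cycle lists (0.91 and 0.81) lay to the right of 0 against both subcutaneous sets. Of the 17 mesothelial genes, 8 were under 1 CPM in every isWAT control and had to differ, so that median is a description only. Endothelial (-0.86 and -0.14) and vessel wall lists (-0.63 and 0.30) changed with the subcutaneous set used.

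Genes that define the fat cell were lower in ieWAT. Of 28 tested, 25 were lower and 0 higher, with a median of -0.70, and 21 to 25 stayed lower in the fits that left out a library. The 28 genes summed to 42740, 41320 and 46900 CPM in the ieWAT controls, 69500, 70650 and 71030 CPM in the isWAT controls and 75010, 76690 and 74010 CPM in the sWAT controls. Adipoq, the adipokine adiponectin, was at 1367, 1366 and 1544 CPM in the ieWAT controls, 2301, 2337 and 2302 CPM in the isWAT controls and 2749, 3136 and 2910 CPM in the sWAT controls (log2 -0.70 ± 0.09 SE, adjusted p = 0.000736). Pparg, the main transcription factor of fat cells, was at 144, 117 and 137 CPM in the ieWAT controls against 233, 194 and 219.5 CPM in the isWAT controls (log2 -0.70, adjusted p = 0.00189). Plin1, which coats the lipid droplet, differed by -0.84, and Nnat, a membrane proteolipid of differentiating fat cells, by -1.40. The ieWAT and isWAT controls did not overlap for Adipoq, Pparg or Plin1, which was also so for 47.0% of all tested genes. The 3 uncalled members were Cebpb, Adrb3 and Cd36. Against sWAT, 23 were lower and 0 higher (median -0.73), and between isWAT and sWAT there were 7 higher and 7 lower (median 0.09). In the same libraries the macrophage list summed to more CPM in ieWAT, and the part of that shift in the lower fat cell levels was not tested.

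**Figure D5:**
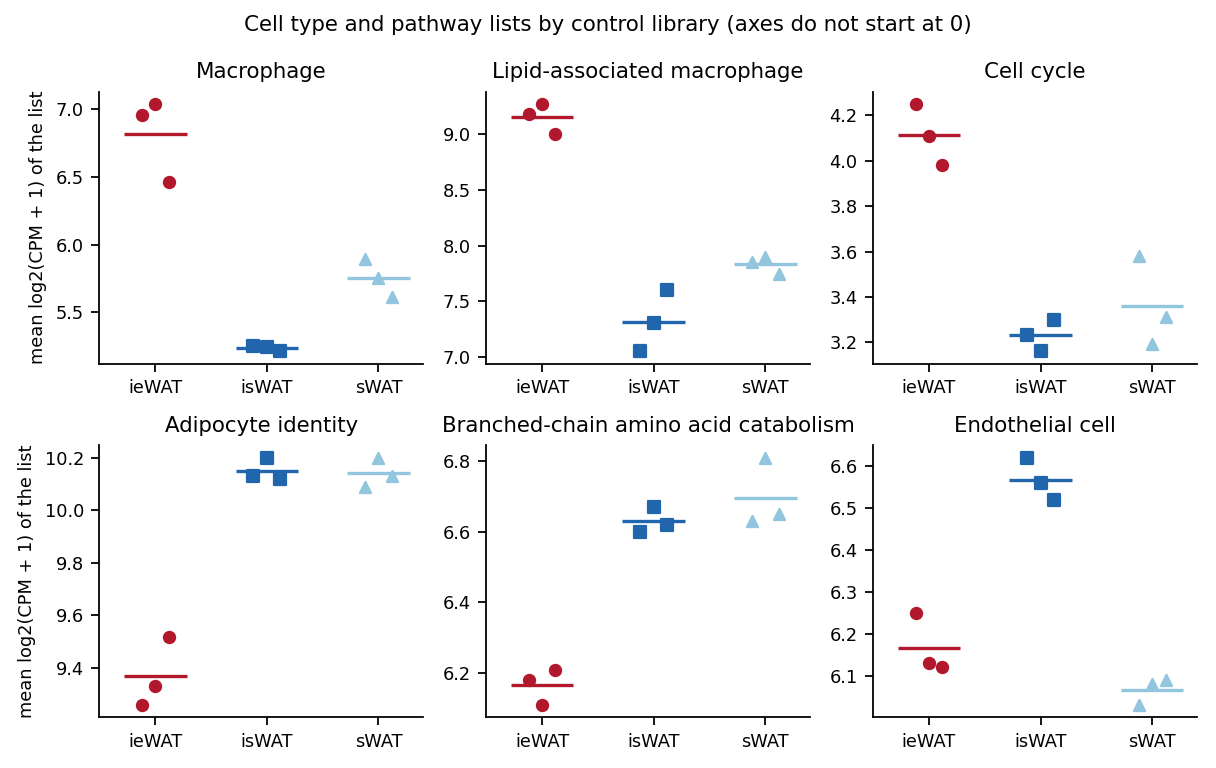
Mean log2(CPM + 1) of the tested genes of 6 lists in each control library, with a point per library and the group mean as a line (axes do not start at 0). The ieWAT controls had the highest macrophage values (6.96, 7.04 and 6.46, against 5.25, 5.24 and 5.21 in isWAT) and the lowest adipocyte values (9.26, 9.33 and 9.52, against 10.13, 10.20 and 10.12 in isWAT). By this mean the endothelial list separated isWAT (6.62, 6.56 and 6.52) from sWAT (6.03, 6.08 and 6.09) more than from ieWAT (6.25, 6.13 and 6.12). By the median gene the order was reversed, with the larger difference between ieWAT and isWAT (-0.86).

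Metabolic genes of the fat cell were mostly lower too. Some are counted again here: Plin1, Plin4, Cidec and Lipe are in both the fat cell and the lipolysis list. Slc2a4 is in both the fat cell and the insulin list. The counts of these lists are therefore not independent of the fat cell count. Breakdown of branched-chain amino acids, a fuel source of mature fat cells, gave 16 lower and 0 higher of 21 tested genes (median -0.50), and 16 lower and 1 higher against sWAT (median -0.55). Bcat1, the cytosolic transaminase of that pathway, was at 21.1, 19.9 and 24.2 CPM in the ieWAT controls against 66.2, 61.1 and 59.5 CPM in the isWAT controls (log2 -1.48). Acat1 (-0.60), Mccc1 (-0.60) and Pccb (-0.57), mitochondrial enzymes of the same pathway, were lower too. The other transaminase, Bcat2, was not called (log2 -0.08, adjusted p = 0.616, limma), and neither were Bckdk (-0.08) and Ppm1k (-0.04). Lipogenesis gave 14 lower and 1 higher of 23 (median -0.57), and 8 lower without ieWAT control 2. Against sWAT it gave 8 lower and 1 higher (median -0.24). Its larger calls included the lipid droplet protein Pnpla3 (-1.17, but -0.41 with an adjusted p of 0.062 against sWAT) and the desaturase Scd2 (-0.61), while the desaturase Fads1 was higher (0.97). Lipolysis and droplet genes gave 13 lower and 0 higher of 21 (median -0.67), with 3 higher at an unadjusted p under 0.05, 0 by edgeR and 1 by DESeq2, and 3 called higher without ieWAT control 1. Against sWAT 11 were lower and 1 higher (median -0.40). Plin5, a droplet coat protein that contacts mitochondria, was at 11.6, 11.3 and 14.7 CPM in the ieWAT controls against 61.6, 38.9 and 47.2 CPM in the isWAT controls (log2 -1.88). The lipases Lipe (-0.93) and Mgll (-0.77) were lower, and so was the adenosine receptor Adora1 (-0.75, but -0.06 against sWAT).

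Insulin signalling and glucose uptake genes gave 12 lower and 4 higher of 25 tested (median -0.45), and 2 higher without isWAT control 2. Against sWAT 9 were lower and 7 higher (median -0.21). Slc2a4, the insulin-responsive glucose transporter, was at 67.7, 78.4 and 87.5 CPM in the ieWAT controls against 162, 189 and 160 CPM in the isWAT controls (log2 -1.12). Grb14, an inhibitor of the insulin receptor, was lower (-1.48), and Igfbp2, a binding protein for insulin-like growth factors, was higher (1.85). Nuclear subunits of the respiratory chain gave 7 lower and 1 higher of 37 (median -0.20), and 2 to 9 lower when a library was left out. DESeq2 called 12 lower and the replicate block 4, and against sWAT 20 were lower and 1 higher (median -0.27). None of the 13 mitochondrially encoded genes passed limma's test (median -0.25), with 2 lower at an unadjusted p under 0.05, 0 called by edgeR and 3 lower by DESeq2, and 7 were lower without ieWAT control 1. Against sWAT 12 of the 13 were lower (median -1.21), and between isWAT and sWAT 11 were lower (median -0.90), so the sWAT controls had the highest levels. Cholesterol synthesis gave 5 lower and 4 higher of 21 (median -0.24), with 2 to 9 lower and 1 to 3 higher when a library was left out. With no expression filter 1 was lower and 1 higher, limma without trend and robust options gave 2 and 2, and against sWAT 9 were lower and 2 higher (median -0.37). Over all tested genes 18.4% were higher and 13.6% lower in ieWAT than in isWAT. The cholesterol counts and the lower count of the nuclear respiratory chain genes lie near those shares, so they are no result about these lists. Thermogenic genes gave 7 lower and 3 higher of 22 (median -0.35), and 7 lower and 4 higher against sWAT (median -0.14). The creatine genes were the higher ones: Ckb, brain-type creatine kinase, was at 192, 248 and 233 CPM in the ieWAT controls against 44.4, 47.8 and 60.4 CPM in the isWAT controls (log2 2.12), and the transporter Slc6a8 differed by 1.54 and the synthesis enzyme Gatm by 1.39. The nuclear regulator Prdm16 (-1.17) and the droplet protein Cidea (-1.55) were lower. Ucp1, the uncoupling protein of brown fat, overlapped between depots, at 1.76, 3.12 and 7.12 CPM in ieWAT and 2.19, 5.94 and 2.60 CPM in isWAT (log2 0.07, adjusted p = 0.928).

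Vessel, nerve and clock genes differed between ieWAT and isWAT but depended on the subcutaneous set. Endothelial genes gave 20 lower and 2 higher of 24 tested (median -0.86), against 7 lower and 5 higher relative to sWAT (median -0.14), and 17 higher and 2 lower between isWAT and sWAT (median 0.59). Cdh5, the endothelial cadherin, was at 364, 355 and 358 CPM in the ieWAT controls, 809, 719 and 694 CPM in the isWAT controls and 421.5, 409 and 410 CPM in the sWAT controls. Its log2 difference was -1.04 against isWAT and -0.20 against sWAT (adjusted p = 0.0691). The endothelial receptor Kdr was lower against both sets, at -1.18 and -0.60. The lymphatic genes Pdpn (1.81 and 1.34) and Prox1 (1.23 against isWAT) were the members that were higher in ieWAT, and Pdpn is also a mesothelial protein. Of these 2 higher genes, 1 was under 1 CPM in every isWAT control and had to differ. Pericyte and smooth muscle genes gave 10 lower and 0 higher of 14 (median -0.63, 6 lower without isWAT control 1), but 5 higher and 2 lower against sWAT (median 0.30). Myh11, the smooth muscle myosin, was at 77.2, 60.9 and 95.2 CPM in the ieWAT controls, 159.5, 118 and 141 CPM in the isWAT controls and 31.0, 43.3 and 32.5 CPM in the sWAT controls. Its log2 difference was -0.85 against isWAT and 1.10 against sWAT. Rgs5, a pericyte signalling regulator, was lower against both, at -1.31 and -1.02.

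Schwann cell and nerve genes gave 11 lower and 5 higher of 19 (median -0.81), of which 4 lower and 1 higher were under 1 CPM throughout the other depot, and 7 lower and 5 higher against sWAT (median -0.25). The higher count was 2 without isWAT control 1 and 3 without isWAT control 3. S100b, a calcium-binding protein of Schwann cells and of some fat cells, was at 2.93, 3.12 and 3.68 CPM in the ieWAT controls against 19.9, 23.3 and 15.9 CPM in the isWAT controls (log2 -2.28), and Sox10, the Schwann cell transcription factor, differed by -1.38. Core clock genes gave 6 lower and 2 higher of 18 (median -0.28), and 7 higher and 2 lower against sWAT (median 0.17). The lower count was 3 without isWAT control 1 or without isWAT control 2. Per2, a period gene, was at 31.8, 29.1 and 26.8 CPM in the ieWAT controls, 53.1, 59.8 and 39.4 CPM in the isWAT controls and 19.4, 12.2 and 14.1 CPM in the sWAT controls. Its log2 difference was -0.76 against isWAT and 0.92 against sWAT. The clock activator Npas2 was higher against both, at 1.83 and 1.20. Collection times are not given in the labels, and time of day cannot be told apart from table.

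Fgf13, the gene targeted in the study, was at 51.4, 41.8 and 39.7 CPM in the ieWAT controls, 58.9, 53.0 and 69.2 CPM in the isWAT controls and 110, 113 and 106 CPM in the sWAT controls. As for 47.0% of all tested genes, the ieWAT and isWAT controls did not overlap (log2 -0.44 ± 0.14 SE, adjusted p = 0.0387, limma). A two-sided exact permutation test gave p = 0.1, the smallest that 3 against 3 allows. The call held in 2 of the 6 fits that left out a library. The gap to sWAT was larger (log2 -1.29), and so was that between isWAT and sWAT (log2 -0.86), both of which lie between tables. In the knockout libraries Fgf13 was at 25.2, 22.6 and 33.4 CPM in ieWAT and at 31.3 and 35.3 CPM in isWAT (log2 -0.31, adjusted p = 0.306). Of 10 tested genes in the list of Fgf13 and caveolar genes, 8 were lower and 0 higher (median -0.60), against 7 lower and 1 higher relative to sWAT (median -0.41), and 5 were lower without ieWAT control 2 or without isWAT control 1. Cavin2 (-0.83), Ehd2 (-0.77), Cav1 (-0.61) and Cavin1 (-0.55), which build caveolae, the membrane pits abundant in fat cells, were among them.

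The knockout libraries of the same tables, which share no library with the controls, gave the depot contrast again. There 1467 genes (10.1%) were higher and 290 (2.0%) lower in ieWAT. Of the genes called in both, 1495 of 1496 had the same direction, which is 32.2% of the control calls and 85.1% of the knockout calls. Of the 1259 control calls of at least 2-fold (8.7% of genes tested), 1257 had the same sign and 937 were also called. The knockout counts depended on single libraries, from 62 higher and 12 lower without isWAT knockout 1 to 2211 higher and 709 lower without ieWAT knockout 2. Leaving out ieWAT knockout 1 gave 123 and 18, and leaving out isWAT knockout 2 gave 85 and 11. Col6a5 was at 362, 294 and 501 CPM in the ieWAT knockouts and at 0.637 and 1.54 CPM in the isWAT knockouts (log2 7.53). Wt1 was at 5.20, 5.16 and 12.1 CPM in the ieWAT knockouts and at 0.0265 and 0.024 CPM in the isWAT knockouts. Tbx15 was at 0.0619, 0.101 and 0.0459 CPM in the ieWAT knockouts and at 10.7 and 15.0 CPM in the isWAT knockouts. These 3 genes repeated their control pattern with no overlap.

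By list, the knockout libraries gave 12 higher and 1 lower mesothelial genes (median 2.24), 14 higher and 0 lower macrophage genes (median 1.83) and 0 higher and 4 lower Hox genes (median -0.29). The adipocyte list had 3 lower and 0 higher genes there, with a median of -0.66 close to that of the controls (-0.70). The B cell and lymph node list had 12 higher genes of 13 and a median of 2.12, against 2 and 0.35 in the controls. Cell cycle genes had 1 called of 21 with a median of 0.64. No gene passed a test of the difference between the control and knockout depot contrasts (limma, 0 of 14464 with a smallest adjusted p of 0.433, 446 at an unadjusted p under 0.05; edgeR on recovered reads, 0, with 409 at an unadjusted p under 0.05).

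The eWAT controls gave the same depot genes on their own scale, with no test because the unit and table differ. Tcf21 was at 4.91, 4.98 and 3.13 FPKM and Wt1 at 9.16, 8.24 and 5.04 FPKM in the 3 eWAT controls. Col6a5 was at 52.0, 46.1 and 42.8 FPKM and Upk3b at 17.3, 10.9 and 6.08 FPKM. The genes that were near 0 in ieWAT were also low there. Tbx15 was at 0.0694, 0.0321 and 0.0494 FPKM and Hoxc10 at 0.82, 0.107 and 0.276 FPKM.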

How the data were processed

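RNA-seq tables of mouse fat were analysed as deposited. The submitters' processing notes name DESeq2 1.38.3, Salmon, MultiQC and FastQC, with no roles given. Genome build and strandedness: not given in the sources used here. The ieWAT, isWAT and sWAT tables are named as FPKM but hold CPM as deposited by the authors: each column sums to 1000000 and its values are whole multiples of 1 read (tolerance 0.01 reads), so gene length does not enter. The eWAT table as deposited by the authors holds FPKM, and its depth is unknown. Another 17 per-sample columns were not used.

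Symbols came from GENCODE M21 (GRCm38) and covered 98.6% of the 14464 tested identifiers. Identifiers listed only in the isWAT table held 26.8 to 31.9 CPM of an isWAT control and were left out. CPM was tested as log2(CPM + 1) with limma 3.58.1 (R 4.3.3, trend and robust) on the 6 control libraries with Benjamini-Hochberg adjustment at 0.05, and levels were not compared between genes. edgeR 4.0.16 and DESeq2 1.42.0 on the recovered reads were alternatives. On simulated data of the same depth limma called 81 of 100 genes changed 2-fold, 96 of 100 changed 4-fold and 15 unchanged ones among 14464, and edgeR called 76, 98 and 10.

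Genes named are the called genes with the largest differences (up to 12 a direction, mean at least 5 CPM, protein coding, no overlap), up to 4 called members of each list by smallest p, a fixed set of depot and fat genes, and Hox genes. Members outside that rule (such as Trem2, Gpnmb, Adgre1, Osr1, Lhx8, Sox10, Kit, Cidea, Prdm16 and uncalled members) were chosen after their values were seen, as were the liver and testis lists. The comparison and the 40 lists were chosen with earlier results of these data known. Reads of overlapping or antisense genes (Hox clusters, Wt1) and of near-identical families (mast cell proteases, H2 genes) may be shared. Read counts set the precision of low values, and this covers counting error only.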

Additional observations from a re-analysis of the deposited data

How the results depend on the processing

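Counts of higher and lower genes between ieWAT and isWAT controls (2666 and 1972) stayed within 1.5 times under TMM scaling, median-ratio factors, edgeR (2606 and 1960), DESeq2 (2774 and 2314), pseudocounts of 0.1 and 0.5, no filter (2276 and 1418), a filter at 5 CPM, and sWAT in place of isWAT (3981 and 2318). They moved to 1467 and 290 in the knockout libraries, to 1054 and 205 at 2-fold, and to 1079 lower at an adjusted p of 0.01. The cause was not tested, apart from the stricter rules. Leaving out a library gave 1976 to 2840 higher and 1250 to 2216 lower genes, and in the knockout libraries 62 to 2211 and 11 to 709. Between isWAT and sWAT, TMM gave 3027 higher and 3358 lower. The difference of Fgf13 was no longer called with the replicate block (-0.44, adjusted p = 0.0512), and ran from -0.55 to -0.34 without a library. In the knockout libraries it was -0.31 and not called, but Fgf13 is the gene targeted there, so this is no check on processing. Lists of which 0 genes were called in a direction had none at an unadjusted p under 0.05 and none by edgeR or DESeq2 in that direction, apart from the exceptions given with the lists. With no filter the lower counts were 8 for lipogenesis, 6 for pericyte and smooth muscle, 5 for Fgf13 and caveolar and 3 for clock genes, 1 each for steroid and glutathione genes (5 for glutathione genes with DESeq2), and 2 insulin genes were higher. DESeq2 called 4 endothelial genes higher, and a replicate block 2 erythroid and platelet genes lower. List counts of 2 or fewer that are not named with a library changed by at most 1 when a library was left out. Of 155 called named genes, 143 stayed called without each library. With sWAT in place of isWAT, which moved the median of all genes to 0.106, the sign turned for Notch3 (0.39), Myh11 (1.10), Tpm2 (0.42), Nr1d1 (0.14) and Per2 (0.92), and the cause was not tested. Correlations of deviations were 0.399, 0.537 and -0.197 for equal replicate numbers, and not every library correlated best with its own number. With 3 libraries a group, these correlations cannot tell whether the samples were paired. A replicate block gave 2476 higher and 1812 lower genes between ieWAT and isWAT, and 3637 and 2744 between isWAT and sWAT. One read was worth at most 0.0302 CPM, which limits the levels of genes near 0.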

Other observations

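Several enzymes of retinoid and steroid metabolism differed between depots. Over all tested genes 18.4% were higher and 13.6% lower, and the retinoid and glutathione counts lie near those shares, so they are no result about either list. Of 15 retinoid genes tested, 4 were higher and 3 lower in ieWAT than in isWAT controls (median log2 -0.21), with the same counts against sWAT (median -0.17). Besides Aldh1a2, the retinoic acid enzyme Aldh1a3 was at 69.9, 51.8 and 55.7 CPM in the ieWAT controls against 10.8, 5.68 and 5.59 CPM in the isWAT controls (log2 2.89). Dhrs9, a retinol dehydrogenase, was at 27.9, 36.7 and 27.8 CPM in ieWAT against 2.52, 2.66 and 4.55 CPM in isWAT (log2 2.93). The aldehyde dehydrogenase Aldh1a7 was lower (log2 -0.90). Both higher enzymes kept their direction against sWAT, at 2.45 and 2.00. Steroid genes gave 5 higher and 3 lower of 16 (median 0.18), and 3 of the higher ones were under 1 CPM in every isWAT control. Against sWAT 7 were higher and 4 lower (median 0.01). Sult1e1, the oestrogen sulfotransferase, was at 10.6, 11.7 and 10.8 CPM in ieWAT against 0.566, 0.964 and 0.287 CPM in isWAT (log2 2.93). Hsd11b1, which activates glucocorticoids, was lower (log2 -0.87). The lower count was 1 without ieWAT control 2, isWAT control 1 or isWAT control 3.

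Immediate early genes gave 6 higher and 2 lower of 21 (median 0.12), 4 lower without ieWAT control 3, and 5 higher and 2 lower against sWAT (median 0.34). Atf3, a stress-induced transcription factor, was at 132, 175 and 136 CPM in ieWAT against 12.6, 16.3 and 24.1 CPM in isWAT (log2 3.03). Fos was higher than in isWAT (log2 1.57), with 0.69 against sWAT (adjusted p = 0.155, limma). The 2 lower genes were Fosb (log2 -1.0, and -1.12 with an adjusted p of 0.209 against sWAT, limma) and Btg2 (log2 -0.48). Jun (0.12) and Egr1 (-0.04) were among the uncalled members. Interferon genes gave 8 lower and 2 higher of 24 (median -0.30), and 12 lower and 4 higher against sWAT (median -0.29), with the chemokine Cxcl9 at -0.84 and the antiviral enzyme Oas1a at 0.90. Fibroblast and progenitor genes gave 8 lower and 5 higher of 24 (median -0.14), and 5 lower and 7 higher against sWAT (median -0.05). The homeobox factor Meox2 (-1.06) and the surface protein Thy1 (-0.86) were lower. The growth factor receptor Pdgfra (1.34) and the surface protein Cd9 (1.62), which is also in the lipid-associated macrophage list, were higher. Without isWAT control 1, 5 were lower, and without ieWAT control 3, 8 were higher. Glutathione and oxidant defence genes gave 5 higher and 3 lower of 24 (median 0.02), 1 lower without isWAT control 2, and 6 higher and 6 lower against sWAT (median 0.04). Hmox1, which degrades haem, was at 263, 265 and 216 CPM in ieWAT against 98.8, 85.8 and 107 CPM in isWAT (log2 1.34).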
